A study of Homo sapiens with 4 samples.

Results

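The 10 hypoxia marker genes described here are CA9, CA12, NDRG1, VEGFA, ADM, ANGPTL4, BNIP3, BNIP3L, DDIT4 and MIR210HG. They were taken by gene name from the table of 48162 genes, and all 10 had a row. The list was chosen by the measured rise in FPKM after MGH-CP1 in these same libraries, so levels and changes are a description and carry no test. The RNA came from MDA-MB-231, an established line of triple-negative, mesenchymal-like human breast cancer cells. One group had received MGH-CP1, a small-molecule inhibitor of the autopalmitoylation of TEAD transcription factors, for 24 h at 10 µM by the labels (the methods print mM), and the other had received vehicle for 24 h. Each group held 2 libraries of poly-A RNA, and since nothing says that they came from separate cultures, their spread may be technical and p-values measure only that spread. One line and one dose were measured, all at one time point, and no hypoxia-exposed sample was analysed here.

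Cells sense oxygen through prolyl hydroxylases, which mark the α subunits of the hypoxia-inducible factors (HIF) so that the VHL ubiquitin ligase removes them. When oxygen is short the α subunits stay, pair with ARNT and bind a short core sequence, ACGTG or GCGTG, near genes for glucose use, pH control, vessel growth and mitochondrial turnover. Several of these genes also answer to other inputs: DDIT4 is a target of ATF4 and of the glucocorticoid receptor, and ANGPTL4 is a target of the PPAR nuclear receptors.

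The promoters show which members hold that core sequence close to the start of transcription. RefSeq promoters (GRCh38.p14, from 250 bases before to 50 bases after the start) were matched for 7 of the 10 members, and NDRG1, VEGFA and BNIP3L were not matched. ACGTG, searched on both strands, was found in 5 of the 7 (71.4%), in 34 of 51 other hypoxia-inducible genes (66.7%) and in 21.4% of all 35116 promoters. GCGTG was likewise found in 5 of the 7 (71.4%) and in 36.5% of all promoters, and one or the other was in all 7, against 48.4% of all promoters. The 5 stretches below hold ACGTG in capitals, read on the gene's own strand, where CACGT is ACGTG on the opposite strand. BNIP3 has the palindrome CACGTG, which is in 7.26% of all promoters and which contains ACGTG on both strands.
CA9 (chr9:35673888-35673927, plus strand): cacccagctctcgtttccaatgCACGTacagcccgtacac
ANGPTL4 (chr19:8363905-8363944, plus strand): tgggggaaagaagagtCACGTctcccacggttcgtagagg
BNIP3 (chr10:131982035-131982074, minus strand): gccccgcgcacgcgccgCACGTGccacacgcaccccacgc
DDIT4 (chr10:72273781-72273820, plus strand): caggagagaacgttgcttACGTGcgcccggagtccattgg
MIR210HG (chr11:568606-568645, minus strand): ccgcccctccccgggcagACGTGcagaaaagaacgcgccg
Among the ACGTG matches, the one in CA9 lay closest to the start, at bases -18 to -14, and the one in ANGPTL4 lay farthest upstream, at -234 to -230. CA12 and ADM held GCGTG but lacked ACGTG in this window. The core sequence that TEAD factors recognise, GGAATG, was in 14.0% of all promoters and was not found in the 7 windows. A match or its absence in this short window describes the letters only.

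All 10 members had higher levels after MGH-CP1, in units of FPKM (fragments per kilobase of gene, scaled to the library's depth). Both MGH-CP1 libraries lay above both vehicle control libraries for every member, which was also so for 39.8% of all 12080 genes with a mean of at least 1 FPKM, while 37.4% had both below. By limma with Benjamini-Hochberg adjustment at 0.05, 27.1% of all genes tested were called higher and 23.8% lower. All 10 members were among those called higher, which the way they were listed fixes. The ratio of group means ran from 1.22 for ADM to 3.97 for ANGPTL4 and MIR210HG. The median difference in log2(FPKM + 1) was 0.98 over the members and 0.01 over all genes tested. Summed over the 10 members, the levels were 405 and 419 FPKM in the vehicle control libraries and 757 and 724 FPKM in the MGH-CP1 libraries. In bulk RNA, more cells with a gene switched on and more RNA per cell cannot be told apart.

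**Figure D1:**
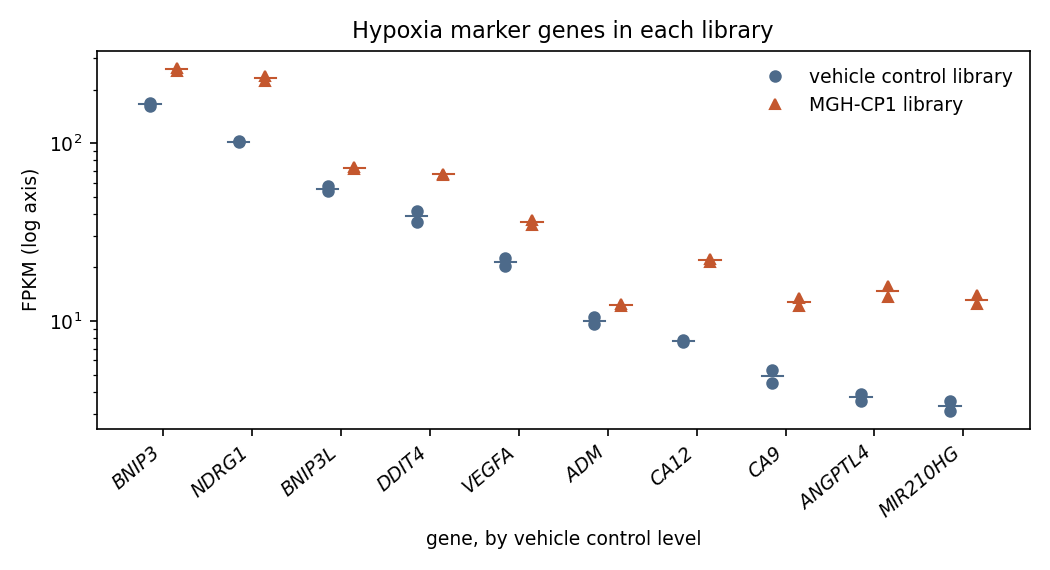
FPKM (log axis) of the 10 hypoxia marker genes in each library, with circles for the 2 vehicle control libraries, triangles for the 2 MGH-CP1 libraries and lines for the group means. The triangles lie above the circles for each gene, with the widest gaps at the low end, for ANGPTL4 and MIR210HG, and the narrowest for ADM.

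Fragments assigned to genes numbered 25455533 and 25508824 with vehicle but 17997221 and 17577930 with MGH-CP1. FPKM divides by depth, so the lower depth of the MGH-CP1 libraries mainly widens the counting error of genes with few fragments. Mitochondrial transcripts took 0.447% and 0.419% of fragments in the vehicle control and 1.57% and 1.53% after MGH-CP1, and the part of this shift in the results was not tested. The mesenchymal markers VIM (259 to 281 FPKM) and CD44 (198 to 221 FPKM) were high in all libraries, but SPARC was at most 0.117 FPKM. The summed level of the 10 mesenchymal markers went from 1789 and 1795 to 1469 and 1521 FPKM, with 1 called higher and AXL, FOSL1 and CAV1 called lower by limma (log2 differences -0.76, -0.62 and -0.49), and the part of this shift in the results was not tested. The defining luminal markers ESR1, PGR and FOXA1 were at most 0.0275 FPKM. Of the 10 luminal markers 6 were tested, with 4 called higher by limma and 0 lower, beside 27.1% and 23.8% of all genes tested. AGR2 (log2 difference 1.85), TFF1 (1.59), KRT19 (0.84) and ERBB3 (0.42) were called higher. GATA3 (at least 4.17 FPKM) and XBP1 (at least 34.9 FPKM) were present in every library and not called. The summed level of the 10 luminal markers went from 311 and 320 to 562 and 534 FPKM. That rise came largely through KRT19 (264 and 271 against 491 and 469 FPKM), and the part of this shift in the results was not tested. Of 12 markers of blood, endothelial and fat cells, 11 were in the table, 5 of them at 0 in every library. Their sum went from 2.79 and 2.15 to 5.52 and 4.55 FPKM, with CD14 called higher by limma (log2 difference 0.59, adjusted p = 0.00715) and LYZ, under the filter, at most 0.256 FPKM with vehicle and at least 1.08 FPKM with MGH-CP1, and the part of this in the results was not tested.

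CA9 and CA12 encode carbonic anhydrases, enzymes on the cell surface that hydrate carbon dioxide and help tumour cells to export acid. CA9 (ENSG00000107159, chr9:35673853-35681156 in hg19, the build of all gene positions here, plus strand) was at 4.49 and 5.28 FPKM in the vehicle control and at 13.5 and 12.2 FPKM after MGH-CP1. Both treated values lay well above both control values, a ratio of means of 2.63 and a log2 difference of 1.23 ± 0.09 (SE). Its fragments were few, 185 and 218 against 392 and 347. CA12 (ENSG00000074410, chr15:63613577-63674360, minus strand) was at 7.61 and 7.79 FPKM against 22.3 and 21.5 FPKM. The libraries of each group were close together and the groups far apart, with a ratio of 2.85 and a log2 difference of 1.40 ± 0.06. Among all genes tested, 0.762% had a larger log2 difference than CA9 and 0.430% a larger one than CA12. The start of CA9 lies opposite ARHGEF39, whose levels were 1.95 and 1.87 FPKM in the vehicle control and 1.72 and 1.43 FPKM after MGH-CP1. Whether the counting used strand is not given in the sources used here.

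Of the other 13 carbonic anhydrases, 3 had a mean of at least 1 FPKM. CA11, a family member without enzyme activity, was at 0.447 and 0.425 FPKM in the vehicle control and at 1.93 and 1.73 FPKM after MGH-CP1. Its mean reached 1 FPKM over the 4 libraries only through the MGH-CP1 group, so it is given with no test. The cytosolic CA13 was at 7.10 and 7.61 FPKM against 6.82 and 6.98 FPKM and was not called (limma, log2 difference -0.08, adjusted p = 0.387). The mitochondrial CA5B was not called either (0.13, adjusted p = 0.335). CA5BP1, on the same strand, covers 15.1% of the span of CA5B and was at 13.8 to 17.6 FPKM. Since the handling of shared fragments is not given in the sources used here, the level of CA5B is uncertain.

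The secreted factors of vessel growth and vascular tone among the members covered both ends of the range of change. VEGFA (ENSG00000112715, chr6:43737921-43754224, plus strand), the main growth factor for endothelial cells, was at 20.3 and 22.5 FPKM in the vehicle control and at 37.0 and 34.7 FPKM after MGH-CP1. The groups did not overlap, and the ratio was 1.68 with a log2 difference of 0.72 ± 0.07. ANGPTL4 (ENSG00000167772, chr19:8428173-8439257, plus strand), an inhibitor of lipoprotein lipase that also acts on vessel walls, was at 3.55 and 3.88 FPKM against 15.8 and 13.7 FPKM. The groups were far apart, with a ratio of 3.97 and a log2 difference of 1.74 ± 0.09, and 0.141% of all genes tested had a larger log2 difference. ADM (ENSG00000148926, chr11:10326227-10328944, plus strand), the precursor of the vasodilator adrenomedullin, was at 10.5 and 9.59 FPKM against 12.4 and 12.2 FPKM. The groups were apart but close, with a ratio of 1.22 and a log2 difference of 0.27 ± 0.07, which 23.8% of all genes tested exceeded. ADM and BNIP3L had fewer fragments in the MGH-CP1 libraries than in the controls, as 422 and 405 against 505 and 462 for ADM, so their rise is one relative to depth.

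Of 9 other genes of the VEGF system, 6 passed the filter. Of these, 3 were called higher (50%, beside 27.1% of all genes tested) and 3 were not called. PGF, a ligand related to VEGFA, was at 1.76 and 1.81 FPKM in the vehicle control and at 2.74 and 2.82 FPKM after MGH-CP1 (limma, log2 difference 0.44, adjusted p = 0.00705). NRP1, a co-receptor, rose by 0.38 (limma, adjusted p = 0.000466), and the ligand VEGFB rose by 0.22 (adjusted p = 0.00769, but 0.0588 without the second MGH-CP1 library). VEGFC, a lymphatic growth factor, NRP2 and the receptor KDR had log2 differences of 0.09, 0.11 and -0.24 and were not called, although voom on the recovered fragments called KDR lower (-0.46, adjusted p = 0.0274). The peptide ADM2 (-0.08) and RAMP1 (0.17), a subunit of related receptors, were the genes of the adrenomedullin system past the filter, and neither was called, although without the second vehicle control library RAMP1 was called higher by limma (0.31, adjusted p = 0.00628). ANGPTL2, another member of the ANGPTL family, was the only one past the filter of 7 listed genes, which were its relatives and their target lipase LPL. It was at 9.04 and 9.48 FPKM against 23.1 and 20.6 FPKM and rose by 1.16 (limma, adjusted p = 2.62e-05).

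BNIP3 and BNIP3L encode related proteins of the outer mitochondrial membrane that tie mitochondria to the autophagy machinery. BNIP3 (ENSG00000176171, chr10:133781578-133795435, minus strand) had the highest level of the members in both groups, 161 and 169 FPKM in the vehicle control and 265 and 254 FPKM after MGH-CP1. The groups were clearly apart, with a ratio of 1.57 and a log2 difference of 0.65 ± 0.05. BNIP3L (ENSG00000104765, chr8:26240414-26363152, plus strand) was at 57.3 and 53.7 FPKM against 73.3 and 71.8 FPKM. Its groups did not overlap either, although its ratio of 1.31 and log2 difference of 0.38 ± 0.05 were the smallest after ADM. The 3′ end of BNIP3L lies opposite PNMA2, which had a log2 difference of -0.03, and the 4 other genes that overlap it were under 1 FPKM throughout, as was RAB11B-AS1 at the end of ANGPTL4.

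Of 14 other mitophagy genes, 12 passed the filter, and 9 were called higher (75%), 1 lower (8.33%) and 2 not called. Of all genes tested, 27.1% were called higher and 23.8% lower. The median log2 difference of the mitophagy genes was 0.38. This list was drawn up with earlier results of these data known, so its shares are a description. SQSTM1, a receptor that carries ubiquitin-marked cargo, was at 75.8 and 80.0 FPKM in the vehicle control and at 142 and 135 FPKM after MGH-CP1 (limma, log2 difference 0.82, adjusted p = 2.69e-05). FKBP8, another receptor on the outer membrane, rose by 0.57 (limma, adjusted p = 0.000248) and OPTN, which also reads ubiquitin, by 0.54 (adjusted p = 0.000137). Members of the ATG8 family, which coat the growing autophagosome, rose too: GABARAPL1 by 0.75, MAP1LC3A by 0.71, GABARAPL2 by 0.49 and MAP1LC3B by 0.27, with limma adjusted p from 0.00056 to 0.00506. The kinase PINK1 (0.19, adjusted p = 0.026) and BCL2L13 (0.20, adjusted p = 0.0366) were called higher by limma with small differences, and with a library left out their adjusted p reached 0.111 and 0.158. The inner-membrane receptor PHB2 fell by 0.23 (limma, adjusted p = 0.00656), a call also lost without the first MGH-CP1 library (adjusted p = 0.0576), whereas CALCOCO2 and FUNDC1 were not called.

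**Figure D2:**
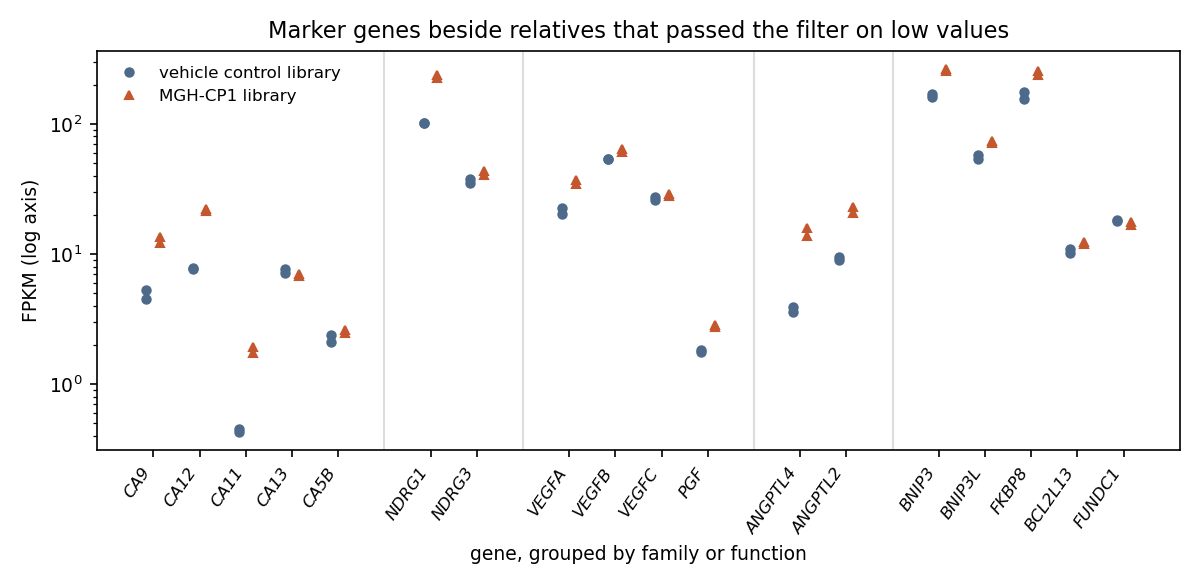
FPKM (log axis) per library of marker genes and of relatives with a mean of at least 1 FPKM, with circles for vehicle control and triangles for MGH-CP1. The triangles of CA9 and CA12 lie well above the circles while those of CA13 lie close to them, ANGPTL2 lay apart between the groups as ANGPTL4 did, and VEGFC and FUNDC1 showed little difference.

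NDRG1 and DDIT4 are intracellular proteins tied to restraint of growth under stress. NDRG1 (ENSG00000104419, chr8:134249414-134314265, minus strand), a suppressor of cell migration in several tumours, was at 101 and 102 FPKM in the vehicle control and at 239 and 224 FPKM after MGH-CP1. The control libraries were almost equal and the treated ones lay far above them, with a ratio of 2.28 and a log2 difference of 1.18 ± 0.05. It gained the most FPKM of all members and had from 10238 to 17132 fragments a library. NDRG3, the sole relative past the filter of 3, was at 37.5 and 34.8 FPKM against 43.7 and 40.7 FPKM (limma, log2 difference 0.22, adjusted p = 0.0173), a call lost without the second vehicle control library (adjusted p = 0.0685) or the first MGH-CP1 library (0.114).

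DDIT4 (ENSG00000168209, chr10:74033678-74035794, plus strand), also called REDD1, restrains the growth kinase complex mTORC1 through the TSC complex. Its levels were 36.2 and 41.4 FPKM in the vehicle control and 67.2 and 66.1 FPKM after MGH-CP1. The treated libraries agreed closely and lay above both controls, with a ratio of 1.72 and a log2 difference of 0.77 ± 0.07. An antisense gene inside it, RP11-442H21.2, was listed at 0 in every library, and since the handling of shared fragments is not given in the sources used here, the level of DDIT4 is uncertain. Of 13 other genes of the mTORC1 complex and its brakes, 11 passed the filter, and 3 were called higher (27.3%), 3 lower (27.3%) and 5 not called, shares near those of all genes tested. TSC2, a brake, rose by 0.34 (limma, adjusted p = 0.00149), as did its partners TSC1 (0.23, adjusted p = 0.0235) and TBC1D7 (0.32, adjusted p = 0.049), the last 2 with adjusted p of up to 0.105 and 0.273 with a library left out. MTOR, the kinase itself, fell by 0.51 (limma, adjusted p = 0.000589) and its activator RHEB by 0.22 (adjusted p = 0.00365). The stress-induced brake SESN2 fell by 0.26 (limma, adjusted p = 0.0354), and without the second vehicle control library its adjusted p was 0.207.

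MIR210HG (ENSG00000247095, chr11:565660-568457, minus strand) is the long noncoding host transcript of miR-210, the microRNA most closely linked to hypoxia. It was at 3.10 and 3.53 FPKM in the vehicle control, the lowest of the members, and at 12.4 and 14.0 FPKM after MGH-CP1. Both treated libraries lay far above both controls, with a ratio of 3.97 and a log2 difference of 1.72 ± 0.09. A separate row covers the 110-base hairpin hsa-mir-210 inside it, with 2 and 5 fragments in the vehicle control and 16 and 14 after MGH-CP1 (0.714 and 1.78 against 8.08 and 7.24 FPKM). Those fragments come from longer poly-A RNA over the hairpin and do not measure the mature microRNA, and how fragments shared by the hairpin and its host were assigned is not given, which leaves the level of MIR210HG uncertain. The RefSeq mature sequences are printed to show what the hairpin yields, with the seed (bases 2 to 8) in capitals.
hsa-miR-210-3p (chr11:568112-568133, minus strand): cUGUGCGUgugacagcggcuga
hsa-miR-210-5p (chr11:568150-568171, minus strand): aGCCCCUGcccaccgcacacug

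The members kept much of their order of level. In the vehicle control the order was BNIP3, NDRG1, BNIP3L, DDIT4, VEGFA, ADM, CA12, CA9, ANGPTL4 and MIR210HG, and no neighbours overlapped, although the lowest ANGPTL4 value and the highest MIR210HG value were close at 3.55 and 3.53 FPKM. After MGH-CP1 the first 5 places were the same. CA12 came next, followed by ANGPTL4, MIR210HG, CA9 and ADM, and each neighbouring pair of these last 4 overlapped. ADM thus went from place 6 to place 10, passed by the 4 genes that had been below it.

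**Figure D3:**
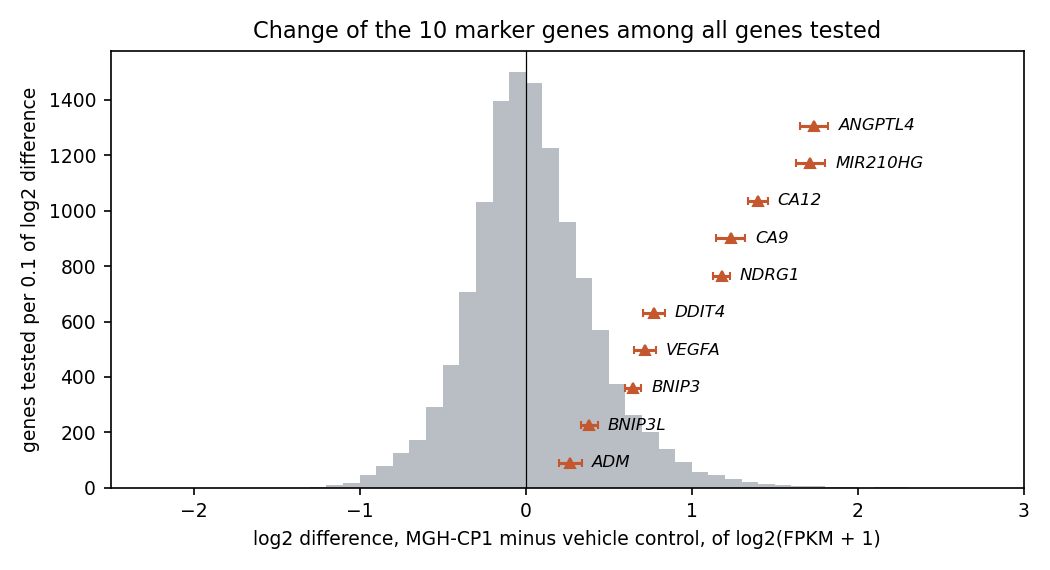
Log2 difference of log2(FPKM + 1), MGH-CP1 minus vehicle control, with grey bars for the number of all 12080 genes tested in each 0.1 of log2 difference and triangles with SE bars for the 10 marker genes, whose height carries no value. The markers spread from 0.27 for ADM, inside the bulk of all genes, to 1.74 for ANGPTL4 in the far right tail.

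Genes outside the members whose pattern over the 4 libraries lay closest to the members' median pattern were CCNL2, ACADVL, NBEAL2, OAS1 and MST1R. Their root mean square distances from it, in log2(FPKM + 1) relative to the vehicle control mean, were 0.0145, 0.0221, 0.0246, 0.0249 and 0.0267. None of the 5 is on the hypoxia lists, and with 2 groups such closeness mainly reflects a like size of change, here 0.94 to 1.01.

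Most other hypoxia-inducible genes were called higher too. Of 58 that passed the filter, 44 were called higher and 2 lower, beside 27.1% and 23.8% of all genes tested. The members had been chosen for their rise, so their larger median is no comparison with these genes. These lists, like the others here, were drawn up with earlier results of these data known, so their shares are a description and no independent support. Among 24 genes of glucose uptake and metabolism 18 were called higher (75%), 1 lower and 5 not called, with a median log2 difference of 0.27. PFKFB4, which sets the level of a glycolysis activator, was at 10.1 and 11.3 FPKM in the vehicle control and at 20.0 and 21.8 FPKM after MGH-CP1 (limma, log2 difference 0.91, adjusted p = 6.27e-05). The enolase ENO2 rose by 0.88 (limma, adjusted p = 3.69e-05), the aldolase ALDOC by 0.85 (adjusted p = 0.000253) and the glucose transporter SLC2A3 by 0.71 (adjusted p = 0.000307). SLC2A1, the main glucose transporter of many tumour cells, went the other way, from 257 and 259 to 231 and 230.3 FPKM (limma, log2 difference -0.16, adjusted p = 0.016). That fall was not called without either MGH-CP1 library (adjusted p = 0.0811 and 0.0815).

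Of 34 further hypoxia-inducible genes tested, 26 were called higher (76.5%, beside 27.1% of all genes tested), 1 lower and 7 not called. Their median log2 difference was 0.40. SPAG4, a protein of the nuclear envelope, was at 6.22 and 8.17 FPKM in the vehicle control and at 24.0 and 18.8 FPKM after MGH-CP1 (limma, log2 difference 1.45, adjusted p = 0.000108). PPFIA4 of the liprin family rose by 1.39 (limma, adjusted p = 4.18e-05), ANKZF1, a factor of ribosome quality control, by 1.09 (adjusted p = 6.18e-05) and the nuclear receptor coactivator PNRC1 by 0.92 (adjusted p = 7.53e-05).

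Of 10 genes of the oxygen-sensing machinery 9 passed the filter, EGLN2 among them only through the MGH-CP1 group, and HIF3A was at 0 in every library. HIF1A, EPAS1, HIF1AN, EGLN3 and VHL were called higher, as were 27.1% of all genes tested. HIF1A, the oxygen-regulated subunit, was at 140 and 125 FPKM in the vehicle control and at 168 and 158 FPKM after MGH-CP1 (limma, log2 difference 0.30, adjusted p = 0.00545, but 0.0802 with no filter on low values). Its relative EPAS1 rose by 0.26 (limma, adjusted p = 0.00325) and the asparagine hydroxylase HIF1AN by 0.25 (adjusted p = 0.00719). The prolyl hydroxylase EGLN3, itself hypoxia-inducible, rose by 0.49 (limma, adjusted p = 0.00862), with an adjusted p of 0.0596 without the first MGH-CP1 library and 0.113 with no filter on low values. EGLN2 was at 0.565 and 0.725 FPKM against 1.94 and 1.72 FPKM and, having passed the filter only through the MGH-CP1 group, is given with no test. Since 97.5% of its span is shared with a readthrough gene listed at 0 in every library, its level is uncertain. VHL rose by 0.20 (limma, adjusted p = 0.0199), with an adjusted p of up to 0.116 with a library left out, and ARNT, ARNT2 and EGLN1 were not called. HIF α subunits are controlled mainly as proteins, which were not measured.

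Programmes that share targets with the members did not all move with them. Their lists were also drawn up with earlier results of these data known, so the shares are a description. Of 20 ATF4-driven stress genes, 3 were called higher (15%) and 11 lower (55%), beside 27.1% and 23.8% of all genes tested. Their median log2 difference was -0.26. SLC7A5, an amino acid transporter, was at 183 and 189 FPKM in the vehicle control and at 75.5 and 90.3 FPKM after MGH-CP1 (limma, log2 difference -1.16, adjusted p = 3.26e-05). PSAT1 of serine synthesis fell by 1.01 (limma, adjusted p = 3.83e-05), ASNS of asparagine synthesis by 0.66 (adjusted p = 0.00032) and MTHFD2 of the folate cycle by 0.64 (adjusted p = 0.000362). VLDLR, a lipoprotein receptor that is hypoxia-inducible too, rose by 0.75 (limma, adjusted p = 8.95e-05), as did CEBPB by 0.44 (adjusted p = 0.000888) and DDIT3 by 0.37 (adjusted p = 0.0194). The DDIT3 call was lost under voom (adjusted p = 0.0648), with no filter on low values (limma, adjusted p = 0.121) and without 3 of the 4 libraries in turn. With a library left out its log2 difference ran from 0.24 to 0.49. MARS, on the opposite strand, covers 25% of the span of DDIT3 and was at 34.9 to 51.5 FPKM. Since the handling of shared fragments is not given, the level of DDIT3 is uncertain.

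All 12 glucocorticoid-inducible genes tested were called, 8 higher (66.7%) and 4 lower (33.3%), beside 27.1% and 23.8% of all genes tested. TSC22D3 rose by 0.91 (limma, adjusted p = 0.000137), NFKBIA by 0.78 (adjusted p = 4.62e-05), KLF9 by 0.76 (adjusted p = 0.000504) and BIRC3 by 0.55 (adjusted p = 0.000389). FKBP5, a chaperone partner that restrains the receptor, was at 17.2 and 17.6 FPKM in the vehicle control and at 8.88 and 9.56 FPKM after MGH-CP1 (limma, log2 difference -0.85, adjusted p = 4.75e-05). The kinase SGK1 fell by 0.69 (limma, adjusted p = 0.000805), the metallothionein MT2A by 0.26 (adjusted p = 0.00279) and the phosphatase DUSP1 by 0.31 (adjusted p = 0.00988, but 0.0578 without the second vehicle control library and 0.0513 without the first MGH-CP1 library).

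Among 11 PPAR-inducible genes tested, a group to which ANGPTL4 also belongs, 9 were called higher (81.8%) and 2 not called. Of all genes tested, 27.1% were called higher. PDK4, which limits the entry of glucose carbon into mitochondria, was at 1.51 and 1.49 FPKM in the vehicle control and at 7.49 and 6.71 FPKM after MGH-CP1 (limma, log2 difference 1.70, adjusted p = 1.91e-05). ACADVL, an enzyme of fatty acid oxidation, rose by 0.97 (limma, adjusted p = 2.58e-05), the lipid droplet coat PLIN2 by 0.94 (adjusted p = 1.5e-05) and ACAA2 by 0.35 (adjusted p = 0.00424). PDK4 and PLIN2 are known to answer to hypoxia as well, so these lists do not separate the inputs.

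**Figure D4:**
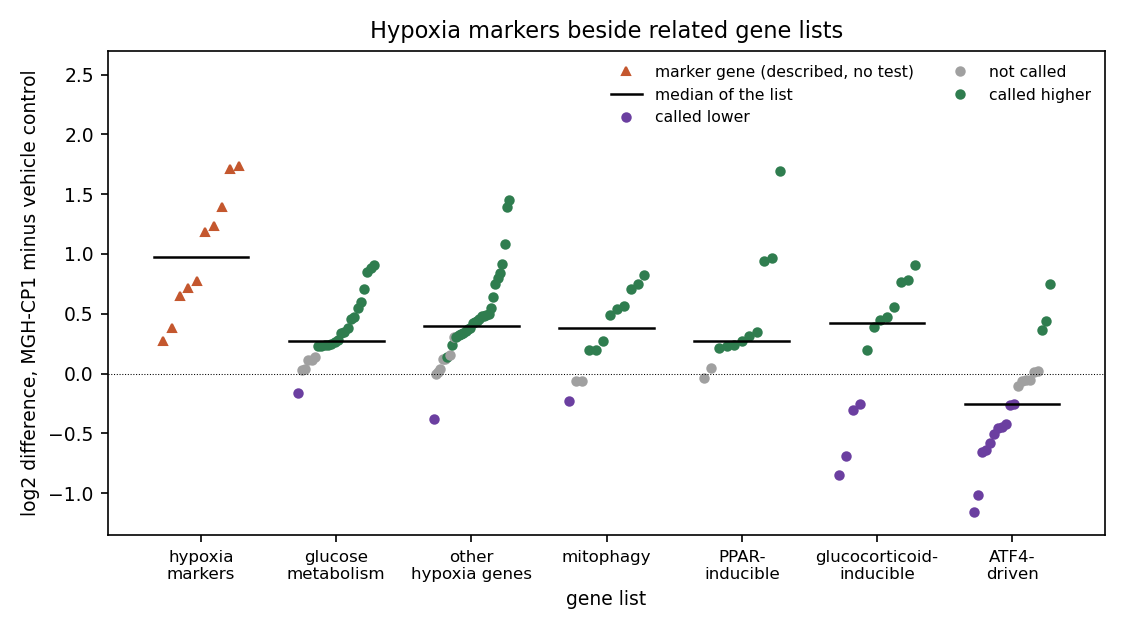
Log2 difference, MGH-CP1 minus vehicle control, of the 10 hypoxia markers (triangles, described with no test) and of the tested genes of 6 related lists, coloured by limma call, with lines for list medians. The marker median is 0.98, but the markers were chosen for their rise, so it is no comparison with the other lists. The other hypoxia lists lie at 0.27 and 0.40, and the ATF4-driven list lies at -0.26.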

How the data were processed

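MDA-MB-231 libraries from 2 vehicle control and 2 MGH-CP1 samples were grouped by their labels. The authors deposited a table of FPKM values per gene with gene length, and per the labels the submitters' processing notes name CASAVA 1.8, STAR and hg19. The counting tool and its use of strand are not given in the sources used here. The MGH-CP1 columns carry the samples' short names, whereas the control columns are named for DMSO and were assigned to the Control samples as the sole vehicle group, by number, and 0 columns of per-sample values were left out. FPKM times gene length gave whole fragments for 100% of values, from which depth was taken. The tolerance was 0.01 fragments, widened in proportion to the count for genes with many fragments, so the check is weak for the largest counts. Log2(FPKM + 1) of the 12080 genes with a mean of at least 1 FPKM was tested with limma 3.58.1 in R 4.3.3 (trended eBayes, two-sided, Benjamini-Hochberg over these genes, threshold 0.05). Simulated data with known changes were used as a check of the script. With 2 libraries a group, an exact permutation test could not go below p = 0.333, so limma's shared variance (5.97 prior degrees of freedom) carries the calls. Alternatives changed the pseudocount, filter, scaling, variance, block or libraries, or used voom on the recovered fragments. The members and lists were chosen with earlier results of these data known. Genes named were all members, genes overlapping them, all tested genes of the family and oxygen-sensing lists, the 4 largest rises and falls called in each other list, and the 5 nearest profiles. One gene that this rule would name is not reported here. Gene coordinates in the table are hg19, whereas sequences were read from RefSeq tables of GRCh38.p14.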

Additional observations from a re-analysis of the deposited data

How the results depend on the processing

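The members' median log2 difference of 0.98 stayed between 0.91 and 1.03 when each library was left out in turn, and between 0.92 and 0.99 under the other alternatives. Low members depended most on the scale: ANGPTL4 and MIR210HG had log2 differences of 1.74 and 1.72, and 1.97 each with voom. With each gene's own variance in place of limma's shared one, 9 genes were called higher and 4 lower, and 0 of the other hypoxia-inducible, ATF4-driven, glucocorticoid-inducible and PPAR-inducible genes were called in either direction; in the reported fit 3657 and 3254 genes had an unadjusted p under 0.05 and were higher or lower. Such a fit has 2 libraries a group to estimate each variance. With no filter on low values 13 of the 74 named genes lost their call, HIF1A, EGLN3, MAP1LC3A and ACAA2 among them, and 1844 genes were called lower instead of 2869, and 1 of the other hypoxia-inducible genes instead of 2. That count of 2 ranged from 1 to 2 when libraries were left out, as SLC2A1 lost its call without either MGH-CP1 library. SESN1, not called at -0.11, ranged from -0.26 to 0.0512 with libraries left out, the positive value arising without the first vehicle control library. Over genes, the deviations of the first libraries from their group means correlated at 0.0777 between the groups. With 2 pairs this cannot show whether the replicate numbers pair the libraries. The replicate block gave 3466 genes higher and 3052 lower, against 3273 and 2869, and changed no call among the 74 named genes. Median-ratio scaling gave 2815 higher and 3481 lower calls, and 5 of the 74 named genes lost their call under it. These were TSC1 (limma, adjusted p = 0.0579), VHL (0.0629), TBC1D7 (0.076), PINK1 (0.079) and BCL2L13 (0.0986). With 2 libraries a group, small differences near the threshold are not firm.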
